A study of Mus musculus with 7 samples.

Results

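The genes described here are 34 genes of enterocyte digestion and absorption. They comprise 12 enzymes of the brush border and its surroundings, 8 nutrient transporters and receptors, and 14 genes of lipid uptake and lipoprotein assembly. The rule picks them by gene name among the 28146 names on the array, from a list drawn up with earlier results of these data known. In all 54 gene probes carried these names, 20 members having 1 probe and 14 several, and 33 of the 34 could be tested. The peptide transporter gene Slc15a1 was not well above background in the sample channel of any of the 7 arrays and was left out of the tests.

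Expression was measured on 7 dual-colour Agilent arrays in cells sorted from mouse intestine for high green fluorescent protein (GFP). In Dll1-EGFP-ires-CreERT2 mice GFP is driven by the promoter of Dll1, a Notch ligand of early secretory cells. The bright cells were divided by surface CD24 into CD24 high, CD24 medium and CD24 low, with 2 samples each. GFP-high cells of Lgr5-EGFP-ires-CreERT2 mice, in which GFP marks crypt base stem cells, gave 1 sample. Every array carried the sorted sample in Cy3 against RNA of whole small intestine, labelled with Cy5, as a common reference. The labels name no age, sex or treatment and tie no sample to an animal, so p-values measure the spread between these samples, which may be partly technical. Levels are log2 of sample over reference: a level of −1 is 2-fold below whole intestine. In such bulk samples fewer cells of a type and less RNA per cell cannot be told apart.

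Enterocytes are the absorptive cells that line the villus. They finish digestion with enzymes anchored in the apical brush border, take up sugars, amino acids, peptides and vitamins through dedicated membrane proteins, and rebuild dietary fat into triglyceride that leaves the cell in lipoproteins carrying apolipoprotein B. Their genes are transcribed with help of the nuclear factors HNF4A, CDX and GATA4, and rise as cells leave the crypt, whereas Dll1 and Lgr5 mark crypt cells. The comparison with whole intestine therefore measures how much absorptive transcript a sorted fraction holds, and the comparison among fractions whether enzymes, transporters and lipid genes follow one pattern.

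The sequences upstream of members with large changes, and of members holding the letters bound by HNF4A, are given for orientation, read from RefSeq's promoter table (GRCm38.p6), which holds 29 of the 34 members. Apoc3, Dgat1, Dgat2, Mep1b and Mogat2 have none in it. Each is written 5′ to 3′ on the strand of the gene and ends at the base before the annotated start of transcription. Cubn and Fabp2 are shown because they had the largest fall and the largest rise from CD24 high to the other Dll1 fractions, Alpi, Treh and Slc3a1 because they hold the HNF4 letters, and Abcg5 and Abcg8 because a single short stretch lies between their diverging starts. Capitals mark matches to the HNF4 letters CAAAGTCCA, the GATA letters AGATAA and the TATA letters TATAAA, on either strand.
Cubn, chr2:13491877-13492126, minus strand: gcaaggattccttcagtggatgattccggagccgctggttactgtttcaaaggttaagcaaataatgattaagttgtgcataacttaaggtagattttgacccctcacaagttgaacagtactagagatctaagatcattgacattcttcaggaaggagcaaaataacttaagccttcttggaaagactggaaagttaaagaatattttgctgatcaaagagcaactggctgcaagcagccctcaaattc
Fabp2, chr3:122894822-122895071, plus strand: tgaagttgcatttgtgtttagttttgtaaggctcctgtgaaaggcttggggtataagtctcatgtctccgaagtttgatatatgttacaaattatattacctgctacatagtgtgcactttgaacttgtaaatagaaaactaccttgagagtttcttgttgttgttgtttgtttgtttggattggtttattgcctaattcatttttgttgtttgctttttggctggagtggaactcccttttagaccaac
Alpi, chr1:87101607-87101856, minus strand: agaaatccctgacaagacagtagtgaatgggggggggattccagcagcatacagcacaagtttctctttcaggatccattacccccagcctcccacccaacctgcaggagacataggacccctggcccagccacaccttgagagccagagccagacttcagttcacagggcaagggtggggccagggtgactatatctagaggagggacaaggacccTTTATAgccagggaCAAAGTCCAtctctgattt
Treh, chr9:44672983-44673232, plus strand: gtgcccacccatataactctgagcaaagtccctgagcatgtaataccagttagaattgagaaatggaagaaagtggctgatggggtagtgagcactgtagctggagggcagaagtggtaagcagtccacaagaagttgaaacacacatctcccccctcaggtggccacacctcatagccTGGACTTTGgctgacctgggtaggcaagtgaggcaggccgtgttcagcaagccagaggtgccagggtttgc
Slc3a1, chr17:85028097-85028346, plus strand: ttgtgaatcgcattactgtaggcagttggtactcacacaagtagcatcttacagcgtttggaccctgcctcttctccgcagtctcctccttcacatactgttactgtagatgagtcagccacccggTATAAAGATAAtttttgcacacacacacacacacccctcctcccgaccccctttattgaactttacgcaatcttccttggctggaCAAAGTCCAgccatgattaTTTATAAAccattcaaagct
Abcg5 and Abcg8, chr17:84683012-84683120, plus strand: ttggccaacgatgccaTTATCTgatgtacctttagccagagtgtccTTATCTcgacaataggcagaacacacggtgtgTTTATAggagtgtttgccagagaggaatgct
The HNF4 letters lay 19 to 11 bases before the start in Alpi, 39 to 31 in Slc3a1 and, on the opposite strand, 71 to 63 in Treh. In Slc3a1 a TATA match and a GATA match share 1 base. In the stretch between Abcg5 and Abcg8, 2 GATA matches and 1 TATA match lay on the opposite strand. Of 32 windows of 250 bases for the members (3 members have more than 1), 3 held the HNF4 letters (9.38%), against 0.384% of all 32851 windows. The other letters reported were CATAAA for CDX (12.5% of member windows against 10.8% of all), AGATAA (21.9% against 9.99%) and TATAAA (34.4% against 12.4%), each on both strands. The windows of Abcg5 and Abcg8 both contain the stretch between their starts, so its GATA and TATA matches count for both genes. All matches named here are letters in a window and say nothing of binding in the sorted cells.

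The sort was visible in its own genes. Cd24a, which encodes CD24, read 3.34 and 3.47 for CD24 high, 0.88 and 0.75 for CD24 medium, −0.68 and −0.59 for CD24 low and −0.11 for Lgr5, and Lgr5 itself was highest in the Lgr5 sample at 2.51. Dll1 read 2.52 to 2.81 in CD24 medium and low but 0.61 and −0.04 in CD24 high, below the 0.88 of the Lgr5 sample. The mean level of 8 Paneth cell markers was 4.75 to 4.88 in CD24 high and below 0 in every other sample. The 14 enteroendocrine markers were highest in CD24 medium, at 2.72 and 3.87. The 11 goblet markers averaged above 0 on every Dll1 array, but in CD24 high they were uneven. There they ran from Clca1, at −1.64 and −5.06, to Spink4, at 5.64 and 5.51, both chosen after their values were seen. Sample signal was well above background for 42.1 to 44% of gene probes on the CD24 high arrays and for 52.4 to 60.1% on the others. CD24 low replicate 1 stood apart for the genes studied here: 27 of 33 members, among them all 14 lipid genes, were higher than in replicate 2, by a median of 0.47 on the log2 scale against −0.01 for all genes. Fabp1 differed by 2.28 between these replicates, Ada by 2.15, Apoa4 by 1.90 and Slc2a2 by 1.28, so results for CD24 low are also given without replicate 1. In the same pair 10 of 11 goblet markers were higher in replicate 1 and 13 of 14 enteroendocrine markers higher in replicate 2. This split was not particular to CD24 low. In CD24 medium 11 of 11 goblet markers and 0 of 14 enteroendocrine markers were higher in replicate 1. The part of these differences in the results was not tested.

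**Figure D1:**
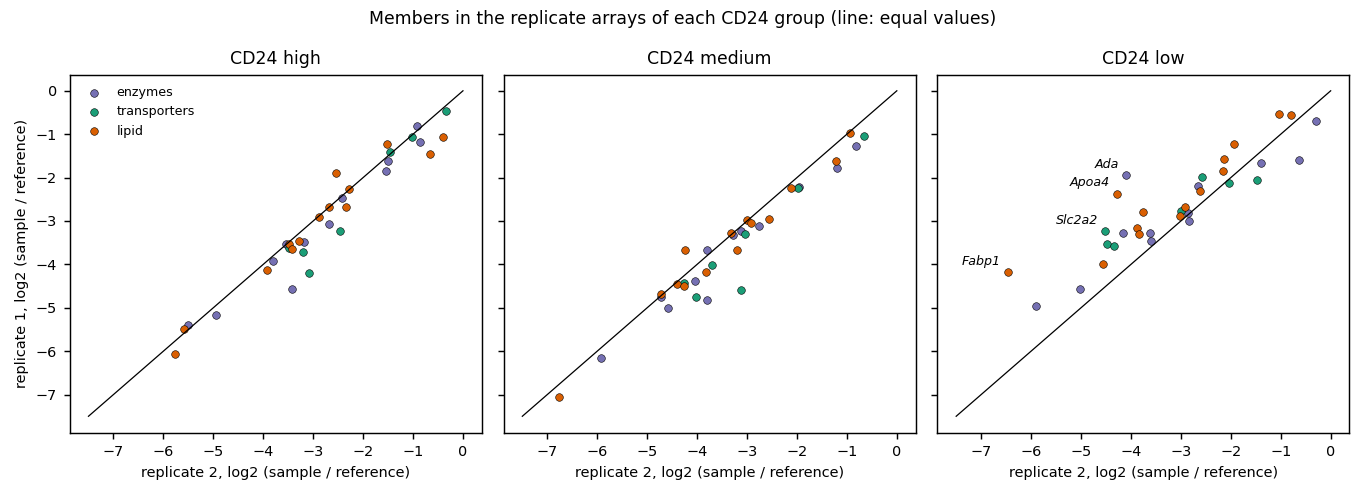
Members in replicate 1 (vertical axis) against replicate 2 (horizontal axis) of each CD24 group, as log2 of sample over whole intestine, with 1 point per tested member coloured by role and a line of equal values. In CD24 low 27 of 33 points lie above the line, with Fabp1, Ada, Apoa4 and Slc2a2 farthest from it, whereas in CD24 high and CD24 medium 9 and 5 of 33 do.

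Against whole intestine, every tested member was low in every sorted group. The mean level of each of the 33 lay below the reference in all 4 groups, and 27 of 33 were at least 2-fold below it on all 7 arrays, compared with 3.78% of all genes. By group, 28 of 33 members were at least 2-fold below on each array of CD24 high (7.63% of all genes), 30 in CD24 medium (10.3%), 29 in CD24 low (8.13%) and 32 in Lgr5 (16.1%). The median member level was −2.87 in CD24 high, −3.45 in CD24 medium, −2.92 in CD24 low and −3.52 in Lgr5, with medians of 0.01 to 0.07 over all genes. The dyes were never exchanged, so a dye effect is part of each level, and it cancels between groups. All 12 enzymes were well above the array background in each group, so their transcripts were detected. Their group means ran from 1.41-fold below whole intestine, for Ace in CD24 low, to 106-fold below, for Sis in Lgr5.

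**Figure D2:**
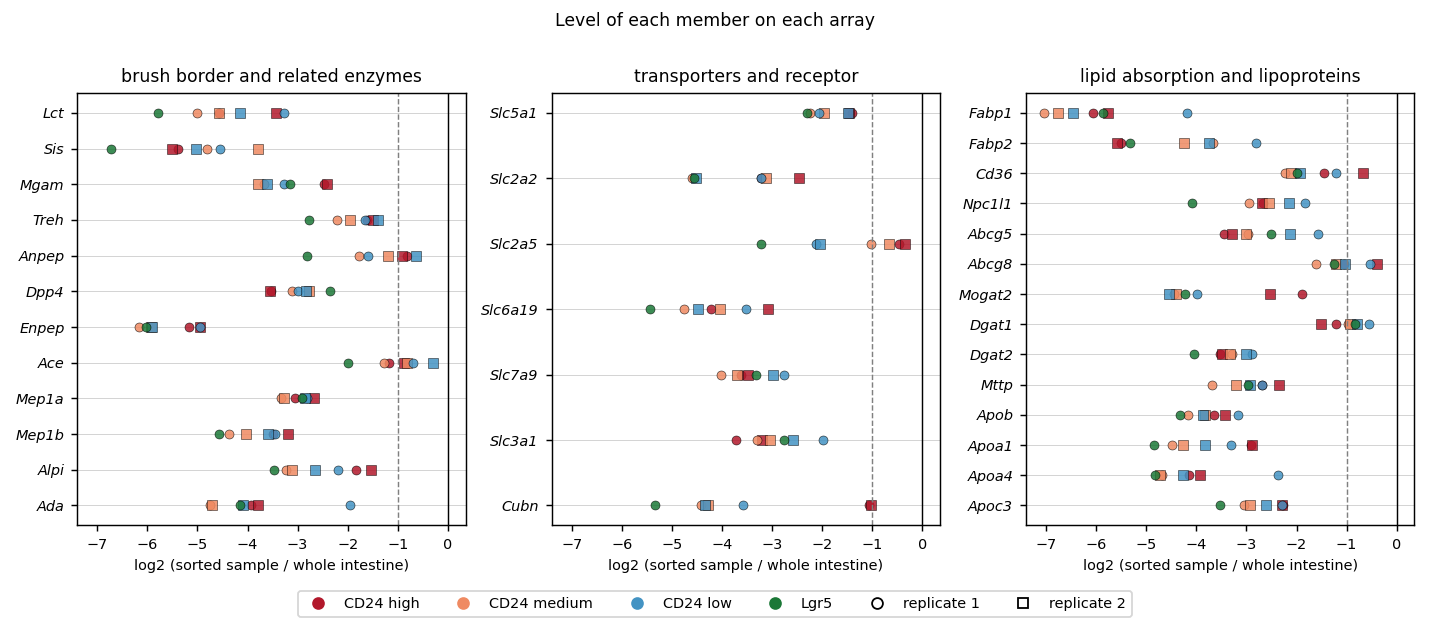
Level of each tested member on each of the 7 arrays, as log2 of sorted sample over whole intestine, in panels for enzymes, transporters and lipid genes. Colours are groups, circles replicate 1 and squares replicate 2, the solid line marks equality with the reference and the dashed line a level 2-fold below it; no point lies above the solid line.

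Among the enzymes, Sis, Lct and Enpep were farthest below the reference by group mean, except in CD24 medium. There Ada, at a mean of −4.73, lay below Sis, at −4.3. Sis, sucrase-isomaltase, read −5.39 and −5.5 for CD24 high, −4.81 and −3.8 for CD24 medium, −4.56 and −5.02 for CD24 low and −6.73 for Lgr5, which is 19.8 to 106-fold below whole intestine by group mean. Lct, the lactase gene, ranged from −5.78 in Lgr5 to −3.28 in CD24 low replicate 1. Enpep, aminopeptidase A, ranged from −6.16 to −4.95, with all groups 33.4-fold or more below the reference. The least reduced enzymes were Ace, the peptidyl dipeptidase known from the renin-angiotensin system, at −2 in Lgr5 and between −1.27 and −0.29 elsewhere, and Anpep, aminopeptidase N, at −2.82 in Lgr5 and between −1.78 and −0.63 elsewhere. For both the Lgr5 value lay below all 6 Dll1 values. Treh, trehalase, ranged from −2.78 in Lgr5 to −1.39, and Mep1a, a meprin subunit, from −3.33 to −2.68.

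The transporters also differed among themselves in how far they were reduced. Slc5a1, the sodium-glucose cotransporter SGLT1, was between −2.3 and −1.41 on all arrays, and between −2.8 and −2.12 by its second probe. The probes placed Lgr5 differently: it was the lowest array by the first, at −2.3, and the highest by the second, at −2.12. Slc2a5, the fructose transporter GLUT5, was the member nearest to the reference in CD24 high, at −0.46 and −0.34, and fell away to −3.22 in Lgr5. Both subunit genes of the cystine and dibasic amino acid carrier, Slc3a1 (rBAT) and Slc7a9, lay between −4.01 and −1.99. Slc6a19, a carrier of neutral amino acids, ranged from −5.44 to −3.09 and was not well above background in CD24 high and Lgr5, where its levels are upper limits. For Slc2a2, the glucose transporter GLUT2, the probe with the brightest average signal was not well above background in CD24 high and CD24 medium. A second Slc2a2 probe was well above background on all 7 arrays and read −1.93 and −1.24 for CD24 high, −2.62 and −2.77 for CD24 medium, −1.84 and −2.23 for CD24 low and −3.05 for Lgr5. By that probe GLUT2 transcript was detected in every group, lowest in Lgr5, with CD24 medium below the other Dll1 groups. Slc15a1, with 0 of 7 arrays well above background, read −2.9 to −1.02.

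Fabp1, the liver-type fatty acid binding protein, was the most reduced lipid gene. It read −6.06 and −5.76 for CD24 high, −7.05 and −6.77 for CD24 medium, −4.18 and −6.46 for CD24 low and −5.86 for Lgr5, with CD24 low replicate 1 above all other arrays. Apoa4 had the same outlying sample, at −2.37 against −4.82 to −3.93 on the other arrays, as did Ada, adenosine deaminase, at −1.95 against −4.75 to −3.8. The structural apolipoprotein gene Apob ranged from −4.32 to −3.16, and Mttp, which loads lipid onto apolipoprotein B, from −3.68 to −2.35. The lipid genes nearest to the reference were Dgat1, an enzyme of the last step of triglyceride synthesis, at −1.52 to −0.56, and the sterol exporter subunit Abcg8, at −1.62 to −0.39. Abcg8 was not well above background in CD24 high, nor Cd36, a fatty acid receptor, in CD24 high and CD24 medium.

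CD24 medium against CD24 high asks how absorptive genes differ between the fraction rich in Paneth cell markers and the fraction rich in enteroendocrine markers. Cubn, Mogat2, Apoa1, Alpi, Mgam, Mep1b, Mttp and Apoc3 were lower in CD24 medium, and Fabp2 was higher. These are 8 lower and 1 higher of 33 members, with 24 not passing limma's test at a Benjamini-Hochberg adjusted p under 0.05; 20.8% of all genes passed, 7.52% higher and 13.3% lower. The members' share is thus near the background, and their median difference was −0.67 against 0.01 for all genes. By role, 3 of 12 enzymes, 1 of 7 transporters and 4 of 14 lipid genes fell, and 1 lipid gene rose.

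Cubn showed the largest difference of any member. It encodes cubilin, the receptor for intrinsic factor and vitamin B12, and is measured by 1 probe at chr2:13197988-13198047 (mm9). Its level was −1.06 and −1.02 for CD24 high, −4.42 and −4.27 for CD24 medium, −3.58 and −4.33 for CD24 low and −5.33 for Lgr5. Both CD24 high arrays stood far above every other array, with no overlap. CD24 medium was 9.9-fold below CD24 high (difference −3.31, SE 0.26, limma adjusted p 6e-04), CD24 low 7.56-fold below (−2.92, SE 0.26, limma adjusted p 0.00083), and CD24 high 19.6-fold above Lgr5 (4.29, SE 0.31, limma adjusted p 0.00031). Without CD24 low replicate 1 the difference of CD24 low to CD24 high was −3.29.

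Amn, which encodes amnionless, the membrane anchor that carries cubilin to the cell surface, went the other way. It read −2.33 and −2.57 for CD24 high, −1.65 and −1.17 for CD24 medium, −1.63 and −1.48 for CD24 low and −1.29 for Lgr5, so CD24 high was below all other arrays. CD24 medium was 2.05-fold above CD24 high (1.04, SE 0.21, limma adjusted p 0.018) and CD24 low 1.86-fold above (0.89, SE 0.21, limma adjusted p 0.032, or 0.08 with slide as a term). The receptor gene and its anchor gene thus differed in opposite directions between the same samples.

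Mogat2, which encodes the acyltransferase that makes diglyceride from absorbed monoglyceride, was the lipid gene with the largest fall. Its values were −1.9 and −2.54 for CD24 high, −4.45 and −4.4 for CD24 medium, −3.99 and −4.55 for CD24 low and −4.23 for Lgr5. Both CD24 high samples were above the other 5 arrays, which lay between −4.55 and −3.99. CD24 medium was 4.61-fold below CD24 high (−2.21, SE 0.28, limma adjusted p 0.0038), CD24 low 4.14-fold below (−2.05, SE 0.28, limma adjusted p 0.0045), and CD24 high 4.04-fold above Lgr5 (2.01, SE 0.34, limma adjusted p 0.0054). Its probe, at chr7:106367601-106367660, lies beside that of Dgat2 at chr7:106302215-106302274. Dgat2, which acylates diglyceride further to triglyceride, read −3.53 and −3.48 for CD24 high and −3.28 and −3.32 for CD24 medium, a difference of 0.2 that did not pass.

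Apoa1, the main apolipoprotein of high-density lipoprotein, read −2.9 and −2.88 for CD24 high, −4.49 and −4.27 for CD24 medium, −3.3 and −3.83 for CD24 low and −4.85 for Lgr5. CD24 medium lay 2.81-fold below CD24 high (−1.49, SE 0.21, limma adjusted p 0.006), with CD24 low in between and overlapping neither. Apoc3, an inhibitor of lipoprotein lipase whose gene lies beside Apoa1 (probes at chr9:46037921-46037980 and chr9:46041353-46041412), followed the same order of groups, at −2.27 and −2.29, −3.04 and −2.93, −2.3 and −2.62, and −3.52. Its fall in CD24 medium was 1.63-fold (limma adjusted p 0.032). Apoa4, the third gene of this cluster, did not pass in any comparison, its CD24 low replicates being 1.90 apart. Some spots of the Apoa1 probe were left out as outliers on CD24 low replicate 1 and on Lgr5.

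Alpi, intestinal alkaline phosphatase, read −1.84 and −1.54 for CD24 high, −3.23 and −3.12 for CD24 medium, −2.19 and −2.66 for CD24 low and −3.47 for Lgr5. CD24 medium was 2.79-fold lower than CD24 high (−1.48, SE 0.21, limma adjusted p 0.006) with no overlap, and a second, dimmer Alpi probe was not well above background in CD24 high. Mgam, maltase-glucoamylase, read −2.47 and −2.42 for CD24 high, −3.67 and −3.8 for CD24 medium, −3.27 and −3.61 for CD24 low and −3.15 for Lgr5. By this probe CD24 high was the highest group, and CD24 medium was 2.44-fold below it (−1.29, SE 0.18, limma adjusted p 0.0051). A second Mgam probe did not give this order. It read −3.38 and −3.22 for CD24 high, −3.64 and −3.77 for CD24 medium, −3.21 and −2.87 for CD24 low and −3.23 for Lgr5. CD24 medium was still the lowest group, but CD24 low was above CD24 high and Lgr5 lay within the CD24 high values. With the mean of both probes Mgam passed limma's test in CD24 medium against CD24 high (−0.84, adjusted p 0.011), but neither in CD24 low against CD24 high (−0.37, adjusted p 0.14) nor in CD24 high against Lgr5 (0.31, adjusted p 0.21). Mep1b, the second meprin subunit, was 1.83-fold lower in CD24 medium (limma adjusted p 0.026) and Mttp 1.91-fold lower (limma adjusted p 0.032).

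Fabp2, the intestinal fatty acid binding protein, was the member that rose. It read −5.5 and −5.58 for CD24 high, −3.66 and −4.25 for CD24 medium, −2.8 and −3.75 for CD24 low and −5.32 for Lgr5. CD24 high and Lgr5 were together at the low end, with CD24 medium and CD24 low above both. CD24 medium was 3-fold above CD24 high (1.58, SE 0.34, limma adjusted p 0.022) and CD24 low 4.8-fold above (2.26, SE 0.34, limma adjusted p 0.0065). The difference of CD24 low to CD24 high was 1.79 without CD24 low replicate 1 (limma adjusted p 0.013). A second Fabp2 probe gave the same order, −4.25 and −4.14, −3.23 and −3.6, −2.5 and −3.05, and −4.55.

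The calls in CD24 medium against CD24 high were unequally firm. Mgam, Mogat2, Apoa1, Cubn and Alpi passed under each of 18 other settings tried for this comparison. Fabp2 missed the threshold when either CD24 high replicate or CD24 medium replicate 1 was left out, and Mep1b, Mttp and Apoc3 missed it in 6 or more of the 18. Mttp changed sign, to 0.09 with the deposited series matrix values and 0.36 with the sample channel alone. Within slide 1, which holds 1 array each of CD24 high and CD24 medium, Cubn differed by −3.36, Mogat2 by −2.55, Apoa1 by −1.59, Alpi by −1.38, Mgam by −1.19 and Fabp2 by 1.84. On slide 2 the same differences were −3.25, −1.86, −1.39, −1.58, −1.38 and 1.32.

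The median of the members and the split between higher and lower depended on how the arrays were scaled. In CD24 medium against CD24 high the split was 1 higher and 8 lower as reported, 4 and 5 with the series matrix values and 7 and 5 with the sample channel alone. The members' median of −0.67 became −0.01 (median of all genes 0.21) and −0.03 in these settings. Here and in the other comparisons, counts under other settings stand without the share of all genes that passed in them. That share may have changed as well. As reported, most called markers of cells outside the epithelium were also lower in CD24 medium, where 13.3% of all genes were. They were 8 of 13 immune markers (a list that includes Lyz2, which Paneth cells also express), 5 of 10 mesenchymal and endothelial markers and 2 of 6 pancreatic acinar markers. The mesenchymal marker Vim was higher, at −4.28 and −3.48 in CD24 high and −1.65 and 0.33 in CD24 medium. Medians of these lists were −0.81, −0.77 and −0.79. With the sample channel alone their medians were −0.15, 0.01 and −0.09. Of 3 erythroid markers, 2 were lower in CD24 medium as reported, with a median of −0.87. The mean level of the immune markers was −0.77 and −0.33 on the CD24 high arrays and −1.84 to −1.68 in CD24 medium. The part of these lists, or of the smaller share of probes above background in CD24 high, in the members' shift was not tested.

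**Figure D3:**
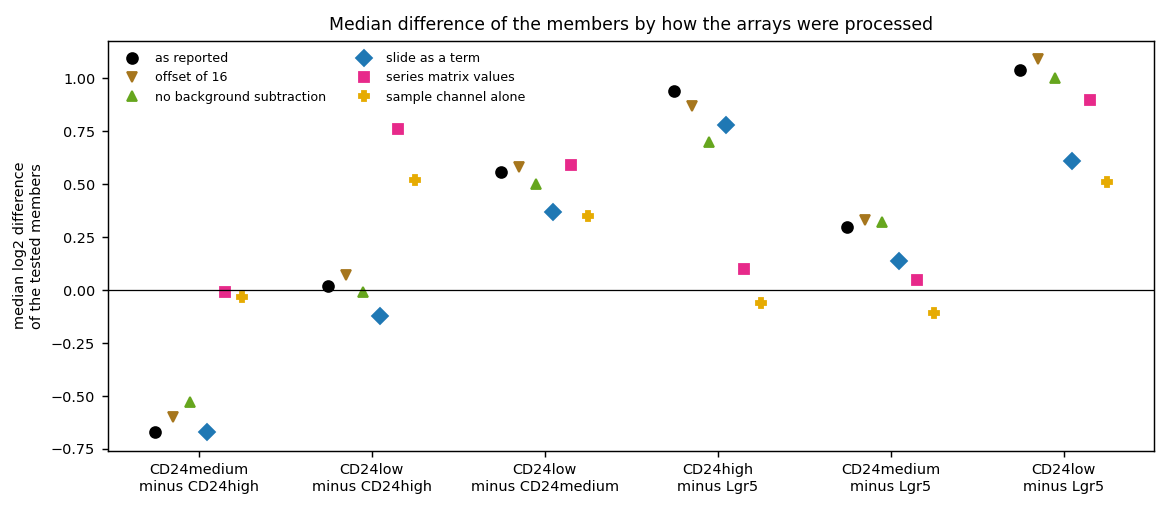
Median log2 difference of the tested members in each comparison, as reported and under 5 other ways of processing the arrays (one symbol each). The medians of comparisons that involve CD24 high move the most, from −0.67 to −0.01 or −0.03 for CD24 medium minus CD24 high and from 0.94 to 0.10 or −0.06 for CD24 high minus Lgr5.

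CD24 low against CD24 high compares the fraction with the least CD24 with the one rich in Paneth cell markers. Here members went both ways: Fabp2, Abcg5, Slc3a1, Dgat1, Slc7a9 and Dgat2 were higher in CD24 low, and Cubn, Mogat2, Slc2a5 and Mgam were lower. This made 6 higher and 4 lower of 33, with 23 not passing limma's test, where 18.1% of all genes passed (6.86% higher and 11.2% lower). The median difference was 0.02, equal to that of all genes. Among the roles, 4 lipid genes rose and 1 fell, 2 transporters rose and 2 fell, and of 12 enzymes 1 fell. The split was 9 higher and 4 lower with the series matrix values and 8 and 3 with the sample channel alone, and the members' median then was 0.76 (all genes 0.24) and 0.52.

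Slc2a5 separated CD24 low from the other Dll1 fractions. It read −0.46 and −0.34 for CD24 high, −1.03 and −0.66 for CD24 medium, −2.13 and −2.04 for CD24 low and −3.22 for Lgr5, and no group overlapped another. CD24 low was 3.22-fold below CD24 high (−1.68, SE 0.18, limma adjusted p 0.0018). Abcg5, which forms the exporter of plant sterols and cholesterol together with Abcg8, read −3.45 and −3.29 for CD24 high, −2.97 and −3 for CD24 medium, −1.57 and −2.14 for CD24 low and −2.52 for Lgr5. CD24 low was the highest group without overlap, 2.86-fold above CD24 high (1.52, SE 0.22, limma adjusted p 0.0055, and 1.23 without CD24 low replicate 1, limma adjusted p 0.013). Abcg8, whose probe lies beside that of Abcg5 (chr17:85098745-85098804 and chr17:85057604-85057663), read −1.06 and −0.39 in CD24 high, where it was not well above background, and −0.53 and −1.03 in CD24 low.

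The subunit genes of the cystine carrier moved together. Slc3a1 read −3.72 and −3.2 for CD24 high, −3.31 and −3.05 for CD24 medium, −1.99 and −2.58 for CD24 low and −2.76 for Lgr5, and Slc7a9 read −3.62 and −3.49, −4.01 and −3.71, −2.76 and −2.99, and −3.32. For both, the CD24 low values were the highest of the 7. The rise over CD24 high was 2.26-fold for Slc3a1 (1.17, SE 0.27, limma adjusted p 0.03) and 1.6-fold for Slc7a9 (0.68, SE 0.18, limma adjusted p 0.048). Dgat1 rose 1.61-fold (limma adjusted p 0.041) and Dgat2 1.47-fold (limma adjusted p 0.046). Another Dgat2 probe read −1.2 and −1 for CD24 high and −1.11 and −1.19 for CD24 low, which overlap, and with the mean of all probes Dgat2 did not pass (0.3, limma adjusted p 0.21). Without CD24 low replicate 1 none of these 4 passed limma's test, with differences of 0.88 for Slc3a1 (adjusted p 0.078), 0.56 for Slc7a9 (0.13), 0.57 for Dgat1 (0.11) and 0.5 for Dgat2 (0.12).

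Fabp2, Mogat2, Abcg5, Slc2a5 and Cubn kept their calls in CD24 low against CD24 high under each of 18 other settings. Without CD24 low replicate 1, 2 members were higher and 7 lower, and the median difference was −0.24. Without CD24 high replicate 1 the calls were 2 higher and 3 lower, and without CD24 high replicate 2 they were 3 and 3. With slide as a term they were 2 higher and 4 lower. On slide 2 alone the differences were −2.94 for Cubn, −1.73 for Mogat2, −1.74 for Slc2a5, 2.3 for Fabp2 and 1.44 for Abcg5.

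**Figure D4:**
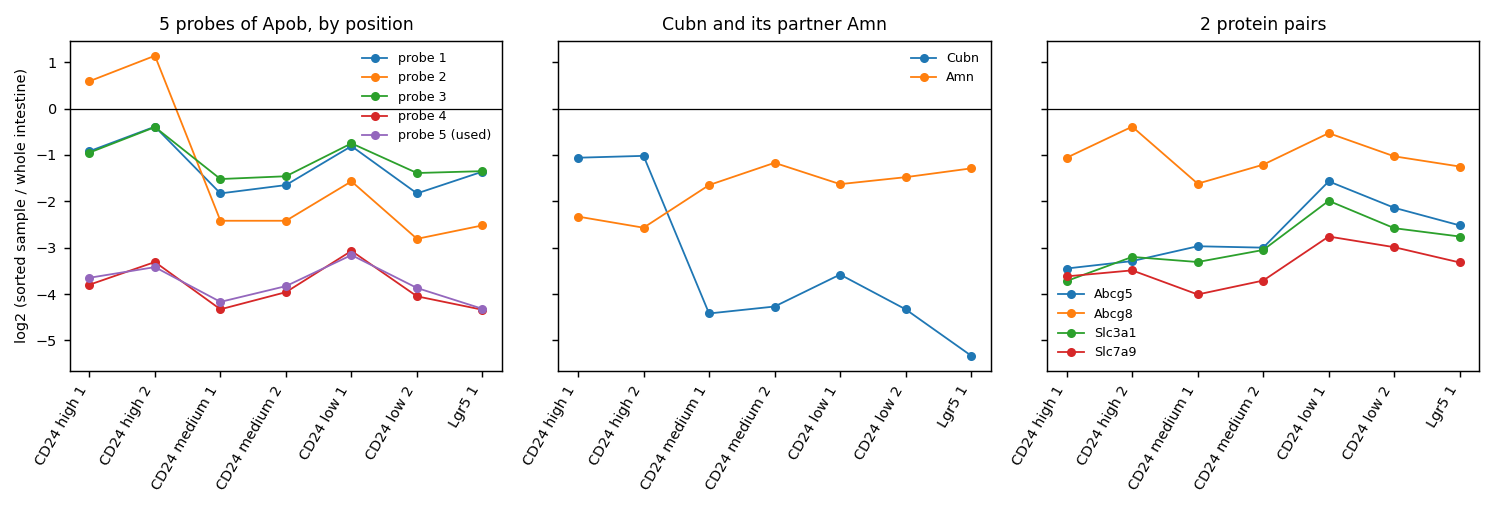
Levels on each of the 7 arrays, as log2 of sorted sample over whole intestine, for the 5 probes of Apob, for Cubn with its partner Amn, and for the pairs Abcg5 with Abcg8 and Slc3a1 with Slc7a9; lines join the values of 1 probe and stand for no order. Cubn is highest and Amn lowest in CD24 high, Slc3a1 and Slc7a9 are both highest in CD24 low, and Apob probe 2, counted by position along the chromosome, lies above the reference in CD24 high and not in the other groups.

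The array places 5 probes in Apob, and they did not give one pattern. The brightest, at chr12:8023194-8023253, read −3.65 and −3.42 for CD24 high and −4.17 and −3.83 for CD24 medium, and its neighbour at chr12:8023134-8023193 read −3.8 and −3.31, and −4.33 and −3.96. The probe at chr12:8014710-8014769, number 2 by position, read 0.59 and 1.14 in CD24 high, −2.42 on both CD24 medium arrays, −1.57 and −2.81 for CD24 low and −2.52 in Lgr5, chosen for mention after its values were seen. It lay above the reference in CD24 high and below it on the other 5 arrays. The remaining probes were not well above background in CD24 high or CD24 medium. Apob by its brightest probe passed in no comparison.

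CD24 low and CD24 medium differed little in these genes by test. Of 33 members, 0 passed limma's test, where 0.114% of all genes did. At an unadjusted p under 0.05 there were 16 members, 15 of them higher in CD24 low, where 10.6% of all genes reached it and 5.24% were higher. The difference was above 0 for 30 of 33 members and for 55.7% of all genes, with medians of 0.56 and 0.03. The lowest adjusted p was 0.091, for Slc2a5, the 1 member below CD24 medium in both replicates (difference −1.24, SE 0.18). Next came Slc7a9 (0.98, limma adjusted p 0.16) and Abcg5 (1.13, limma adjusted p 0.18). Without CD24 low replicate 1 the median was 0.43 and 0 members passed, and without CD24 low replicate 2 it was 0.77 and 3 passed, all higher. The median was 0.59 with the series matrix values and 0.35 with the sample channel alone, so its sign did not depend on these scalings.

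CD24 high against Lgr5 sets the Paneth-rich fraction beside the stem cell sample, which is 1 array whose own spread is unmeasured and was taken from the rest. Higher in CD24 high were the enzymes Alpi, Anpep, Lct, Mep1b, Treh, Ace and Mgam, the transporters Cubn and Slc2a5, and the lipid genes Mogat2, Apoa1, Npc1l1 and Apoc3. Lower were Dpp4 and Abcg5. These 13 higher and 2 lower of 33 by limma's test compare with 35.9% of all genes, 21.2% higher and 14.6% lower, and the median difference was 0.94 against 0.10. The split became 10 higher and 7 lower with the series matrix values and 5 and 7 with the sample channel alone, with medians of 0.10 (all genes −0.15) and −0.06. As reported, 10 of 13 immune, 7 of 10 mesenchymal and endothelial and 6 of 6 acinar markers were higher in CD24 high, and 1 immune marker was lower. Medians of these lists were 1.22, 1.33 and 1.34, or 0.23, 0.10 and 0.44 with the sample channel alone, and their part in the result was not tested. The erythroid list did not follow them, with a median difference of −0.14 over 3 markers.

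Cubn, Slc2a5, Mogat2, Apoa1 and Alpi passed under each of 15 other settings of this comparison. Slc2a5 was 7.05-fold higher in CD24 high than in Lgr5 (2.82, SE 0.22, limma adjusted p 0.00038), Apoa1 3.89-fold (1.96, SE 0.26, limma adjusted p 0.0023) and Alpi 3.43-fold (1.78, SE 0.26, limma adjusted p 0.0032). On slide 1, which holds CD24 high replicate 1 and Lgr5, the differences were 4.27 for Cubn, 2.76 for Slc2a5, 2.34 for Mogat2, 1.95 for Apoa1 and 1.63 for Alpi. Anpep was 3.88-fold higher (limma adjusted p 0.013) and Npc1l1, the cholesterol importer, 2.66-fold (limma adjusted p 0.0059), and both missed the threshold with the sample channel alone. Mgam turned to −0.06 there from 0.70.

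Dpp4, dipeptidyl peptidase 4, was the member whose highest group was Lgr5. It read −3.54 and −3.55 for CD24 high, −3.12 and −2.77 for CD24 medium, −3 and −2.84 for CD24 low and −2.35 for Lgr5. CD24 high was the lowest group and 2.29-fold below Lgr5 (−1.19, SE 0.22, limma adjusted p 0.0072). A second probe beside it gave −3.54 and −3.11 in CD24 high and −2.43 in Lgr5, while another, not well above background in CD24 high or CD24 medium, read −0.82 and −0.44 and −1.28. With the mean of all probes the difference did not pass, at −0.48 (limma adjusted p 0.12).

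CD24 medium against Lgr5 gave the fewest calls with Lgr5. Sis, Slc2a5, Npc1l1 and Dgat2 were higher in CD24 medium and no member was lower, that is 4 of 33 by limma's test against 18.8% of all genes (10.3% higher, 8.53% lower). Sis was 5.37-fold higher (2.42, SE 0.42, limma adjusted p 0.012) and Slc2a5 5.19-fold (2.37, SE 0.22, limma adjusted p 0.0021). For Sis the CD24 medium values of −4.81 and −3.8 lay above the −6.73 of Lgr5 and made CD24 medium the highest group mean, which held for no other member. Slc2a5 alone of the 4 passed under each of 15 other settings. The split was 1 higher and 3 lower with the sample channel alone, and the median of 0.30 became −0.11.

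CD24 low against Lgr5 gave 14 members higher and 0 lower by limma's test, against 21.7% of all genes (12% higher, 9.79% lower). Among enzymes Lct, Sis, Anpep, Ace, Treh, Mep1b and Alpi passed, among transporters Cubn and Slc2a5, and among lipid genes Npc1l1, Fabp2, Apoa1, Dgat2 and Apoc3. Npc1l1 read −2.67 and −2.69 for CD24 high, −2.95 and −2.56 for CD24 medium, −1.84 and −2.15 for CD24 low and −4.09 for Lgr5. All Dll1 arrays lay above Lgr5, and CD24 low was highest, 4.28-fold above Lgr5 (2.1, SE 0.24, limma adjusted p 0.0035). The called differences ran from 2.06-fold for Alpi to this one, and the median was 1.04 against 0.10 for all genes.

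No slide holds both CD24 low and Lgr5. With slide as a term Npc1l1 was the 1 member that passed (limma adjusted p 0.026), and the median fell to 0.61. With the sample channel alone 4 members passed and with the series matrix values 7, all higher. Without CD24 low replicate 1 there were 10 calls and a median of 0.55. Sis, Lct, Mep1b and Alpi then missed the threshold of limma's test, with differences of 1.71 (adjusted p 0.052), 1.61 (0.086), 0.99 (0.058) and 0.81 (0.069), while Fabp2 was 1.57 above Lgr5 (adjusted p 0.025). In this comparison 2 of 13 immune, 4 of 10 mesenchymal and endothelial and 3 of 6 acinar markers were also higher in CD24 low, against 12% of all genes. The immune count is near that share, and the part of these markers was not tested. The erythroid list did not follow them, with a median difference of −0.61 over 3 markers.

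**Figure D5:**
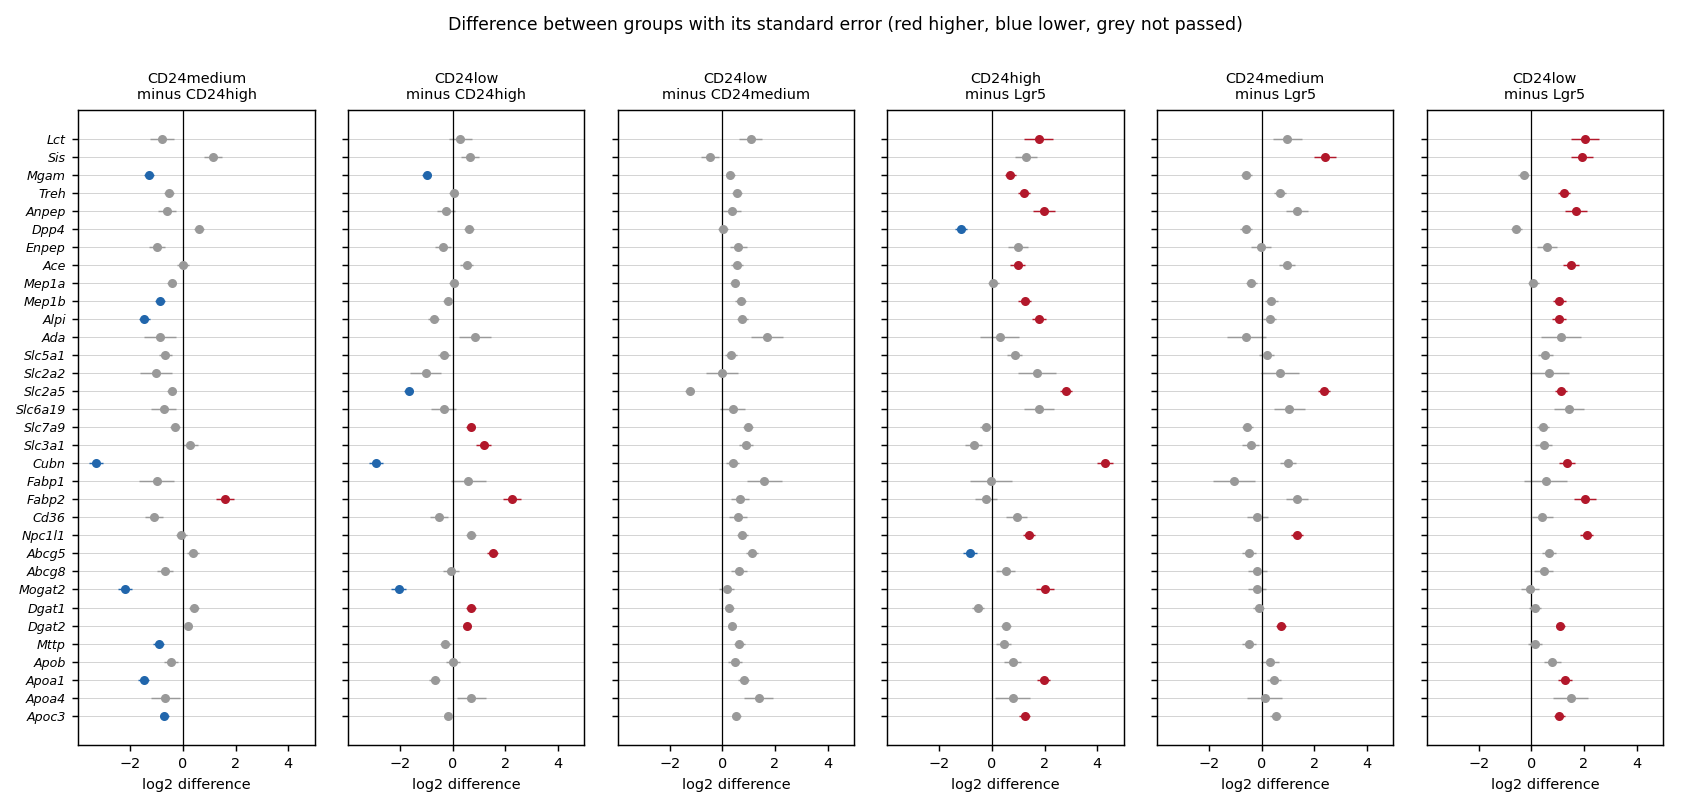
Difference of each tested member in the 6 comparisons between groups, on the log2 scale, with bars of 1 standard error from limma's fit; red points were higher and blue points lower at an adjusted p under 0.05, and grey points did not pass. Cubn and Mogat2 lie far below 0 in both comparisons of other Dll1 fractions with CD24 high and far above 0 in CD24 high minus Lgr5, while Fabp2 lies above 0 in the former.

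Across the 6 comparisons, which share groups and so are not independent, 22 of 33 members passed in at least 1, as did 47% of all genes. They were 9 of 12 enzymes, 4 of 7 transporters and 9 of 14 lipid genes. Enpep, Mep1a, Ada, Slc5a1, Slc2a2, Slc6a19, Fabp1, Cd36, Abcg8, Apob and Apoa4 passed in none. By the brightest probe of each gene, the group with the highest mean was CD24 high for 16 members, CD24 low for 15, CD24 medium for 1 and Lgr5 for 1. The lowest mean was in Lgr5 for 18 members, in CD24 medium for 10 and in CD24 high for 5, and for no member in CD24 low. Members of one role thus did not share one order of groups: Fabp2 and Abcg5 were above CD24 high in CD24 low while Mogat2 was below it, and Slc3a1 and Slc7a9 were above it while Slc2a5 and Cubn were below.

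Mep1a and Mep1b, whose products pair in meprin A, differed in how far they varied. Mep1a read −3.06 and −2.68 for CD24 high, −3.33 and −3.28 for CD24 medium, −2.82 and −2.85 for CD24 low and −2.92 for Lgr5, and passed in no comparison. Mep1b read −3.49 and −3.19, −4.38 and −4.04, −3.45 and −3.59, and −4.58, with CD24 medium and Lgr5 below the other groups. Sis and Mgam, the starch and sucrose digesting pair of related enzymes, had opposite orders in CD24 high and CD24 medium: Sis was lower in CD24 high, by a difference of 1.14 that did not pass (limma adjusted p 0.06), and Mgam was higher there.

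Other genes of the same pathways were counted from companion lists drawn from general knowledge. Of 17 brush border structure genes, 11 were higher in CD24 high than in Lgr5, as were 8 for CD24 medium and 11 for CD24 low, with 0 lower each time (21.2%, 10.3% and 12% of all genes were higher). With the series matrix values 8, 3 and 7 were higher, and with the sample channel alone 6, 6 and 7, again with 0 lower. Cdhr5, a protocadherin that links microvilli at their tips, read 1.29 and 1.36 for CD24 high, −0.08 and 0.09 for CD24 medium, 0.48 and 0.16 for CD24 low and −2.25 for Lgr5. Unlike the members it was not below whole intestine in CD24 high, and it was 11.9-fold above Lgr5 there (limma adjusted p 0.00016). Espn, the actin bundler espin, read 1.27 and 0.97 in CD24 high and −0.66 to −0.2 in the other Dll1 groups, where it was 3.21-fold lower in CD24 medium (limma adjusted p 0.0037). Against CD24 high, 2 of the 17 were higher and 5 lower in CD24 medium, while CD24 low had 3 higher and 4 lower, splits that became 3 and 3, and 5 and 3, with the sample channel alone.

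Further hydrolases, transporters and lipid genes were counted in the same way. Against CD24 high, CD24 medium was lower in 6 of 15 other hydrolases, 6 of 18 other transporters and 5 of 22 other lipid genes (13.3% of all genes), and higher in 1 of each (7.52%). With the series matrix values 4, 3 and 2 were lower and 1, 3 and 2 higher, and with the sample channel alone 3, 3 and 2 lower and 1, 2 and 1 higher. CD24 low against CD24 high gave 1 higher and 1 lower hydrolase, 1 and 1 transporters, and 0 higher and 2 lower lipid genes (6.86% and 11.2% of all genes), and with the sample channel alone 3 and 2, 4 and 1, and 2 and 2. Slc46a1, the proton-coupled folate transporter, read −1.01 and −0.78 in CD24 high against −2.84 to −2.07 in the other groups, 3.78-fold lower in CD24 medium (limma adjusted p 0.0026). Apoc2, the activator of lipoprotein lipase, read −0.21 and 0.46 for CD24 high, −2.93 and −2.8 for CD24 medium, −1.45 and −2.61 for CD24 low and −3.63 for Lgr5. It was 7.95-fold lower in CD24 medium than in CD24 high (limma adjusted p 0.0047) and, like Cubn and Mogat2, highest in CD24 high without overlap. Against Lgr5, CD24 high was higher in 8 hydrolases, 7 transporters and 10 lipid genes (21.2% of all genes) and lower in 1, 2 and 2 (14.6%). With the sample channel alone these became 2, 2 and 4 higher and 2, 5 and 5 lower, and with the series matrix values 6, 4 and 5 higher and 1, 5 and 5 lower. Plin2, a lipid droplet coat protein, was among the lower lipid genes as reported, at −1.39 and −1.4 in CD24 high and 0.42 in Lgr5 (3.53-fold, limma adjusted p 0.0013).

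The regulators of absorptive genes lay near the reference, with array means of −0.55 to 0.09. Of 19 regulators, 1 was higher and 2 lower in CD24 medium than in CD24 high (7.52% and 13.3% of all genes), and 6 higher and 0 lower in CD24 low (6.86% and 11.2%). With the sample channel alone 5 were higher and 0 lower for CD24 medium, and 8 higher and 0 lower for CD24 low. Isx, a homeobox repressor that controls vitamin A uptake, read −2.76 and −3.47 for CD24 high, −0.16 and −0.74 for CD24 medium, 0.37 and 0.01 for CD24 low and −0.56 for Lgr5. It was 9.88-fold higher in CD24 low than in CD24 high (limma adjusted p 0.0011). Hnf4a was 1.9-fold higher in CD24 low (limma adjusted p 0.014, but 0.062 with the mean of all its probes) and Cdx1 2.25-fold (limma adjusted p 0.01). Klf4, a factor of post-mitotic epithelium, read 0.65 to 1.87 on the Dll1 arrays and −4.2 in Lgr5, 59.4-fold higher in CD24 high (limma adjusted p 4.7e-05).

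Among 19 other mature enterocyte genes, 1 was higher and 4 lower in CD24 medium than in CD24 high (7.52% and 13.3% of all genes). In CD24 low 3 were higher and 3 lower (6.86% and 11.2%). With the sample channel alone the counts were 2 and 3 for CD24 medium, and 6 and 3 for CD24 low. Krt20, a keratin of differentiated epithelium, read −5.75 and −5.59 for CD24 high, −3.02 and −2.84 for CD24 medium, −1.58 and −2.62 for CD24 low and −7.47 for Lgr5, an order that resembles that of Fabp2 with Lgr5 lowest. It was 11.9-fold higher in CD24 low than in CD24 high (limma adjusted p 0.001). Guca2b, which encodes uroguanylin, read 2.08 and 2.12 in CD24 high, above whole intestine, and −1.75 to −1.14 in CD24 medium and CD24 low, 13.2-fold lower in CD24 low (limma adjusted p 6.2e-05). Cps1, the first enzyme of the urea cycle, was lower in CD24 high than in Lgr5, at −1.21 and −2.48 against 3.04 (29.4-fold, limma adjusted p 0.00078, or 0.058 with the sample channel alone). These lists were chosen with earlier results of these data known and are descriptions.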

How the data were processed

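RNA of 7 sorted samples (100 ng each, amplified with Agilent's low RNA input kit per the labels' protocols) was hybridised in Cy3 against whole small intestine in Cy5. Per the file headers, the deposited intensity values, mean and background per spot and channel, were extracted with Agilent Feature Extraction 10.5.1.1, with probe positions on mm9. The deposited series matrix holds log10 ratios, equal to the arrays' own ratio column with the sign turned, and centred at a median of 0.

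Here, intensities were background corrected (normexp, offset 50) and normalised by loess (span 0.3) within arrays in limma 3.58.1 (R 4.3.3, data.table version 1.17.8). Control spots had no weight and outlier spots of the sample channel were left out. Ratios were turned to sample over reference, spots of a probe averaged, and probes kept if 2 or more of the 7 arrays had sample signal well above background (24483 of 41174). The brightest probe stood for a gene, which gave 17527 genes, 17471 of them in comparisons with Lgr5; 26918 probes were named through RefSeq accessions and 14256 kept the file's name. A single linear model, with a mean for each group, took in all 7 arrays (3 residual and 3.55 prior degrees of freedom), with Benjamini-Hochberg adjustment over all genes at 0.05, after a check on simulated data. Levels against the reference have no test. The number of arrays limits the precision. Figures were drawn with matplotlib 3.10.9 (Python 3.11.15, pandas 2.3.3).

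Every member is described. From each companion list, genes named are among up to 3 per direction and comparison with the largest passing difference, and others are said to be chosen after their values were seen. Members and lists were chosen with earlier results of these data known. Alternatives were other background corrections, scalings, probe filters and probe summaries, the series matrix, slide as a term, the replicate number as a block, the compared groups alone and leaving out each array. Coordinates of promoters are GRCm38.p6 and were not mixed with those of the probes. A further motif that was searched is not reported here.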

Additional observations from a re-analysis of the deposited data

How the results depend on the processing

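Counts of members at least 2-fold below whole intestine stayed within 1.5 times under all alternatives run. The counts of calls in this section stand without the share of all genes that passed in the same setting. That share may have changed as well, so a change in a count is not particular to the members. Between CD24 medium and CD24 high, 15 members passed when these groups were fitted alone (1 higher, 14 lower) in place of 9, and 5 to 15 when an array was left out, 15 without either CD24 low replicate and 5 without CD24 high replicate 2. Between CD24 low and CD24 high there were 6 calls with slide as a term in place of 10, and 5 to 10 with an array left out. CD24 low against CD24 medium gave 0 to 3, the 3 without CD24 low replicate 2. CD24 high against Lgr5 gave 11 to 20 in place of 15, CD24 medium against Lgr5 2 to 8 in place of 4 (8 without either CD24 low replicate, 2 without CD24 medium replicate 2), and CD24 low against Lgr5 10 to 17 in place of 14. This last comparison gave 7 calls with the series matrix values, 4 with the sample channel alone and 1 with slide as a term. The cause of these changes was not tested. Where an array is left out, the number of samples is smaller as well, and its part was not tested either.

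Mttp in CD24 medium against CD24 high reversed to 0.09 with the series matrix values and 0.36 with the sample channel alone, and Mgam in CD24 high against Lgr5 to −0.06 with the sample channel alone. With the replicate number as a block, 10 members passed in CD24 medium against CD24 high, 10 in CD24 low against CD24 high and 0 in CD24 low against CD24 medium, with Slc7a9 lost in the second. Deviations of same-numbered samples correlated at 0.3 for CD24 high with CD24 medium, −0.01 for CD24 high with CD24 low and 0.48 for CD24 medium with CD24 low. Same-numbered CD24 medium and CD24 low samples thus shared part of their deviations. The labels state no pairing and the main fit used none, and whether these samples were prepared together was not tested. Signal over background limits Slc15a1, Slc6a19, Cd36 and Abcg8 and, of 2 Slc2a2 probes, the one used, and the single Lgr5 array leaves its own spread unmeasured.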
